A study of Homo sapiens with 9 samples.

Results

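The genes of glycolysis and of the response to low oxygen were followed in VCaP, a line of prostate cancer cells that expresses the androgen receptor. They were 35 genes taken by symbol from the 58735 genes of the count table: glucose transporters, glycolytic enzymes, lactate enzymes and transporters, kinases that set the flux of the pathway, and targets or regulators of the hypoxia-inducible factor (HIF). Of these, 33 passed the filter on low counts and were tested among 15555 genes. CA9 (carbonic anhydrase IX) and BNIP3L (a mitophagy receptor) did not, with 0 to 2 counts in each of the 9 libraries. The cells received siCtrl, a control siRNA, or 1 of the siRNAs directed against CDO1, named siCDO1A and siCDO1C, and each group had 3 biological replicates. All groups were cultured in DMEM with 10% fetal bovine serum and 2 nM DHT (dihydrotestosterone, an androgen). The labels name no low-oxygen treatment, the paper's methods give a time after transfection for RT-qPCR and functional assays but name none for the sequenced RNA, and the study used a single cell line with transient silencing, which limits the model. The study silenced CDO1, which encodes cysteine dioxygenase, to find genes that depend on its expression.

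Glycolysis splits glucose into pyruvate in a chain of enzymatic steps, and lactate dehydrogenase turns pyruvate into lactate, which leaves the cell through monocarboxylate transporters. HIF1A encodes the oxygen-regulated subunit of HIF-1. In the presence of oxygen, prolyl hydroxylases of the EGLN family mark this subunit for degradation, so that its activity is set mainly at the level of the protein. HIF-1 binds a short DNA element and raises the transcription of many glycolytic genes, of VEGFA, CA9, BNIP3, ANKRD37, KDM3A and P4HA1, and of EGLN1 and EGLN3 themselves.

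The total count per library was between 12061295 and 16073698, so that 3 counts, the most that a count of 0 allows by counting error alone, correspond to 0.187 to 0.249 CPM (counts scaled to a common library total). The 35 genes took between 0.652% and 0.725% of the counts of a library. CDO1 was present at 14.2, 14.1 and 13.6 CPM in the siCtrl libraries, at 3.28, 2.05 and 2.18 CPM with siCDO1A, and at 1.09, 2.81 and 1.15 CPM with siCDO1C. CDO1 was thus lower by 82.1% ± 4.83 with siCDO1A (SD, n = 3). For siCDO1C the reduction was 87.9% ± 6.98 (SD, n = 3), and the exact permutation test (two-sided) gave p = 0.1 in both cases, the smallest p that 3 libraries against 3 allow. Replicate 2 of siCDO1C, the siCDO1C library with the most CDO1 left, stood apart from the other 2 for these genes. It held the highest siCDO1C value for 24 of the 33 tested genes (72.7%), against 41.0% of all genes tested, and the values without it are given beside the siCDO1C results or collected in a paragraph of their own. Without it, the reduction of CDO1 by siCDO1C was 91.9%. All 10 luminal and VCaP markers were above the limit of 3 counts in each group. Of 14 markers of other cell types, 5 were, while 5 were at 0 in all siCtrl libraries and 3 in all libraries of either siRNA group. The 14 had a summed level of 125 to 134 CPM in siCtrl cells. It was 136 to 163 CPM with siCDO1A and 140 to 152 CPM with siCDO1C. Only 5 of the 14 were tested, and 3 (KRT14, CHGA and COL1A1) were past the threshold, higher with siCDO1A, beside 7.37% of all genes. With siCDO1C 0 were. Of the 10 luminal and VCaP markers, 5 passed with siCDO1A (2 higher, 3 lower) and 3 with siCDO1C (1 higher, 2 lower). Of all genes, 14.8% and 4.77% passed. The part of these markers in the results was not tested. In bulk RNA, fewer cells with a transcript and less of it per cell cannot be told apart.

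The core letters of the HIF element, ACGTG, were searched on both strands in the 250 bases before each RefSeq transcription start (GRCh38.p14), counting overlapping matches as 1 site. A window was found for 30 of the 35 genes, which had 58 windows. Of these, 22 (37.9%) held the letters, against 18.5% of the 35116 windows of all genes. By gene, 19 of 30 (63.3%) had them in at least 1 window, against 21.7% of the 27305 genes with a window, although the genes differ in their number of windows. The share was similar in the 8 HIF-related members with a window (62.5%) and in the other 22 (63.6%). The windows of all genes were not matched to those of the members in base content or expression. A match is a description of the sequence and was not tested as a binding site. SLC16A1, PFKFB2 and VEGFA, described below, had no window, and HK1, ENO1, HIF1A and EGLN3 had no match. The stretches below are shown because they carry the letters (in capitals, CACGT being the same letters read on the other strand) in front of genes that passed the threshold (ALDOC, GPI, TPI1 and EGLN1) or at 2 or more sites in 1 window. They read from 5′ to 3′ on the strand of the gene.
ALDOC, chr17:28576909-28577145, minus strand: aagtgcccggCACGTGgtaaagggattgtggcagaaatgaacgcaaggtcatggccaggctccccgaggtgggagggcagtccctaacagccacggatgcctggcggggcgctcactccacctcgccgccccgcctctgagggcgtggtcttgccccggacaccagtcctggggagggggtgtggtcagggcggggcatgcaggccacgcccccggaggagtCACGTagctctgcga
GPI, chr19:34364820-34364844, plus strand: actgcctgtaACGTGgaaggtgttc
TPI1, chr12:6868078-6868102, plus strand: tgcgccgccgCACGTagccccagac
EGLN1, chr1:231422288-231422310, minus strand: gccgtggtgtACGTGcagagcgc
HK2, chr2:74834966-74835036, plus strand: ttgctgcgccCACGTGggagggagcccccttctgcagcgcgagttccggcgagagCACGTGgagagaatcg
LDHA, chr11:18394368-18394504, plus strand: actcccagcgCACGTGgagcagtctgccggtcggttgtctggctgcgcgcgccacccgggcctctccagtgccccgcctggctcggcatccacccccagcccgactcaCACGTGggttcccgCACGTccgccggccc
PGK1, chrX:78104036-78104079, plus strand: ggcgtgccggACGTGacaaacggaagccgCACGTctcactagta
SLC16A3, chr17:82228964-82229001, plus strand: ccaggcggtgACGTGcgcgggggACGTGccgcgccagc
PDK1, chr2:172556063-172556089, plus strand: tgctgcccgcCACGTccctCACGTacc
ANKRD37, chr4:185396669-185396712, plus strand: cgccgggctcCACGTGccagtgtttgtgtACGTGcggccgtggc
HK2 had a further window with 2 matches, which is not shown. The matches of LDHA numbered 3 in this stretch, and those of ALDOC, HK2, PGK1, SLC16A3, PDK1 and ANKRD37 numbered 2 each. In TPI1 and EGLN1 the single match lay within 27 bases of the start.

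Levels between genes were compared per length, as TPM (counts per base of gene, scaled to a common total) computed from the deposited gene lengths. In siCtrl cells the enzymes that act on triose phosphates and their products led: GAPDH, which oxidises glyceraldehyde 3-phosphate, stood at 1765 ± 56.9 TPM, the enolase ENO1 at 767 ± 14.7 TPM, the triosephosphate isomerase TPI1 at 647 ± 1.70 TPM and the pyruvate kinase PKM at 390 ± 2.06 TPM (SD, n = 3). These 4 levels did not overlap within the SD. PGAM1 (314 ± 3.36 TPM) came next, whereas LDHA (236 ± 7.59 TPM) and PGK1 (228 ± 1.54 TPM) had overlapping ranges of the mean ± SD. At the steps before the split into trioses, levels per length were lower. GPI reached 164 ± 9.12 TPM, PFKL 109 ± 5.99 TPM, PFKM 99.1 ± 2.66 TPM and HK1 86.5 ± 2.98 TPM (SD, n = 3). This order depends on the deposited lengths, 10680 bases for GPI against 2700 for TPI1. In CPM, which are not scaled by length, GPI (453 in siCtrl cells) was level with TPI1 (452) and above LDHA (379). PFKL (251 CPM) was above PGAM1 (209 CPM), while PFKM (188 CPM) and HK1 (141 CPM) were below it. HIF1A (98.3 ± 9.10 TPM) and BNIP3 (80.6 ± 3.57 TPM) were the most abundant of the 10 HIF-related members. The kinases were low, between 8.48 TPM for PFKFB2 and 13.9 TPM for PDK1. ALDOA, the aldolase of most tissues, was listed at only 1.92 ± 0.150 TPM (23 to 33 counts per library), against 31.1 ± 2.69 TPM for ALDOC. The span of ALDOA is shared with AC093512.2 on the same strand, how reads over both were assigned is not stated, and the level of ALDOA is uncertain for that reason.

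**Figure D1:**
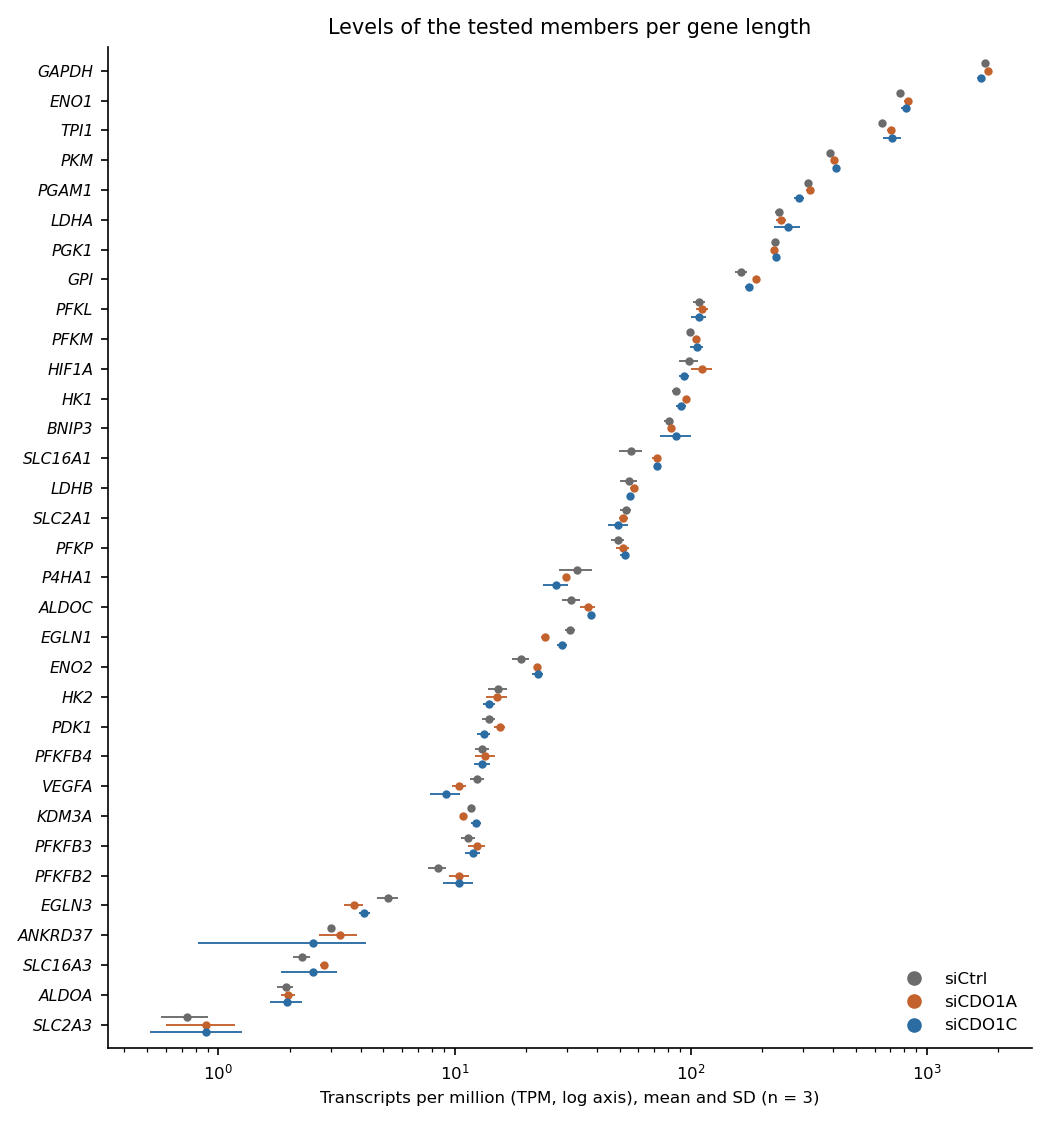
Level of each of the 33 tested genes per gene length, in TPM on a log axis, as the mean of 3 libraries with its SD in siCtrl (grey), siCDO1A (orange) and siCDO1C (blue) cells. GAPDH, ENO1, TPI1 and PKM are the most abundant, and the order of the genes is nearly the same in the 3 groups.

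With siCDO1A, 10 of the 33 tested genes (30.3%) were past an adjusted p of 0.05 in edgeR's quasi-likelihood test, 8 in the upward and 2 in the downward direction. Over all 15555 genes tested, 14.8% were past it, 7.37% higher and 7.48% lower. The members were chosen with earlier results of these data known, so such shares, here and below, describe them and are no test of the pathway. The lactate transporter SLC16A1 rose most, by 32.3%, and the oxygen sensors EGLN1 and EGLN3 were the genes that fell. The 25 genes of glycolysis, transport and its kinases all had a log2 fold change above 0, from 0.0034 for SLC2A1 to 0.40 for SLC16A1 with a median of 0.13, while 51.9% of all genes did and their median was 0.010. Only 7 of the 25 passed the test. The 3 libraries of siCDO1A all lay above the 3 of siCtrl for 16 of the 33 genes and all below for 4, against 15.2% and 15.4% of all genes. The changes were small, and the 8 genes that rose did so by 11.3% to 32.3%.

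With siCDO1C, 2 of the 33 genes (6.06%) were past the threshold, against 4.77% of all genes (2.27% higher and 2.5% lower). SLC16A1 rose and VEGFA, which encodes an angiogenic growth factor, fell. The median log2 fold change of the 33 genes was 0.067, beside -0.00023 for all genes, and 19 of the 25 genes of glycolysis, transport and kinases had a value above 0. All siCDO1C libraries lay above the siCtrl libraries for 7 genes and below for 3, against 12.1% and 12% of all genes. SLC16A1 was the only gene of the 33 past the threshold with both siRNAs, while 3.62% of all genes were, in the same direction. The 2 comparisons share the siCtrl libraries.

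**Figure D2:**
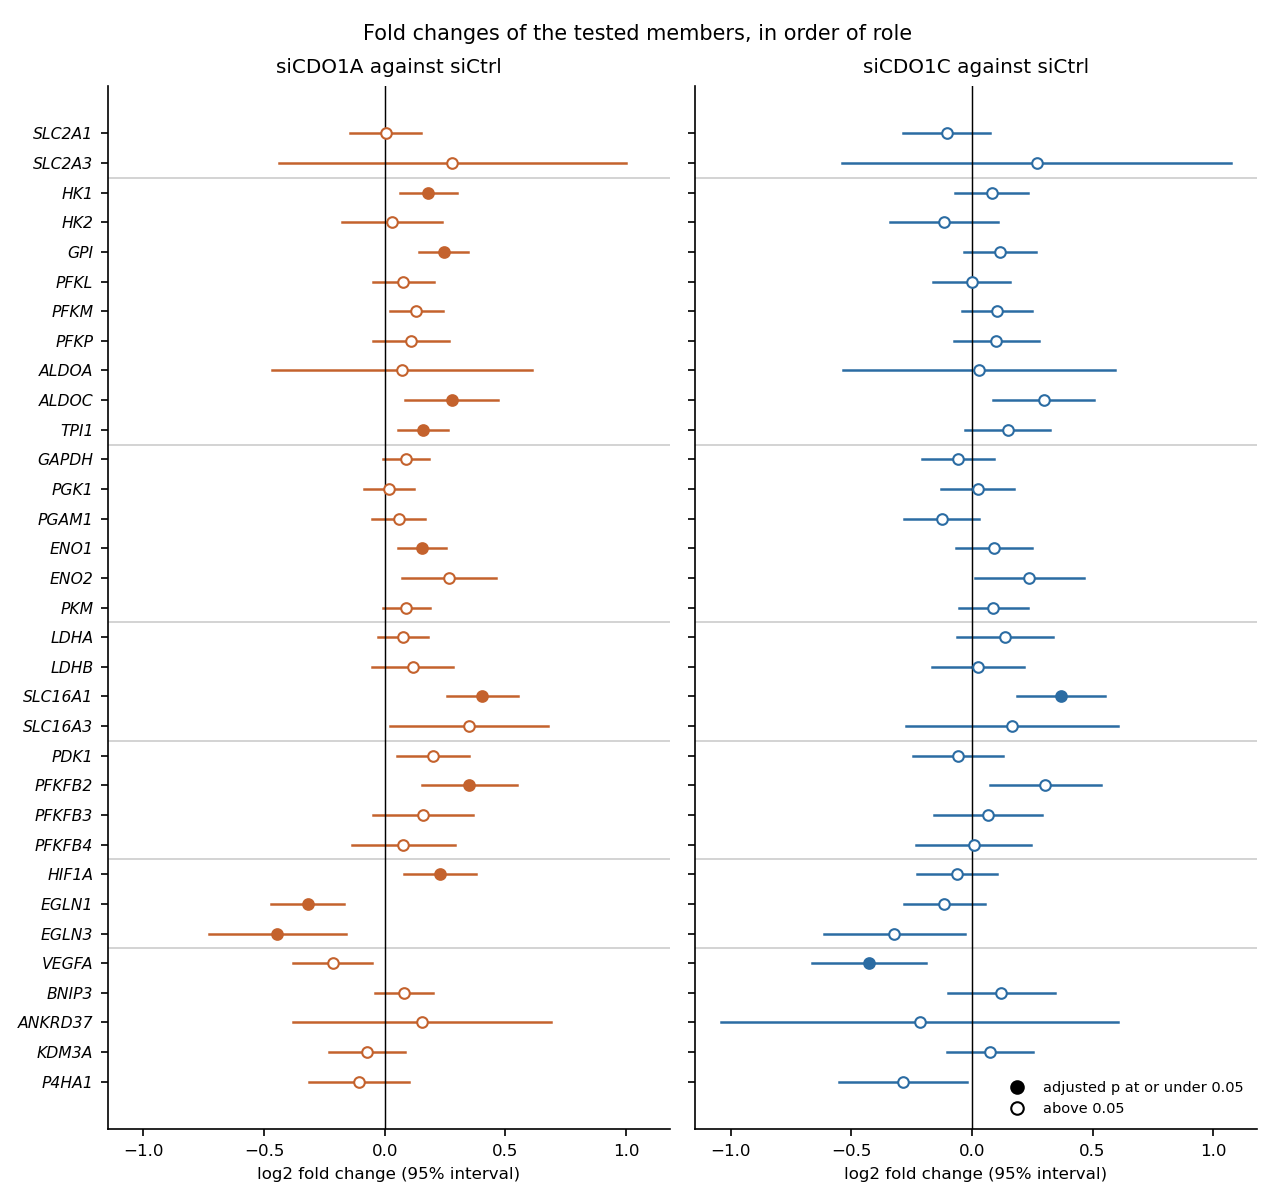
Log2 fold change of each tested gene with its 95% interval from edgeR, with siCDO1A (left, orange) and siCDO1C (right, blue) against siCtrl, in order of role from glucose transporters to HIF targets. Filled points are past an adjusted p of 0.05: 10 genes on the left and 2 on the right.

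SLC16A1 (ENSG00000155380, chromosome 1 from 112911847 to 112957013, minus strand, GRCh38) encodes MCT1, which carries lactate and pyruvate across the plasma membrane. Its level was 82.2, 79.9 and 68.5 CPM in the siCtrl libraries, 102, 98.0 and 104 CPM with siCDO1A and 95.3, 106 and 97.4 CPM with siCDO1C. Every library of either siRNA was above every siCtrl library. This gave a log2 fold change of 0.40 with siCDO1A (SE 0.071, adjusted p = 0.00054) and 0.37 with siCDO1C (SE 0.086, adjusted p = 0.022). Within the batches 1, 2 and 3 of the labels, the log2 ratio was 0.31, 0.30 and 0.61 with siCDO1A and 0.21, 0.41 and 0.51 with siCDO1C. Without siCDO1C replicate 2 the value with siCDO1C was 0.33 (adjusted p = 0.0017). The call with siCDO1C was lost when any of the 3 siCtrl libraries was left out (adjusted p up to 0.134).

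The other genes of lactate handling did not pass the test with either siRNA. LDHA, which encodes the main subunit of lactate dehydrogenase in these cells, was present at 382, 384 and 371 CPM in siCtrl libraries, at 409, 382 and 409 CPM with siCDO1A and at 376, 497 and 386 CPM with siCDO1C. The groups overlapped, and the single high library was siCDO1C replicate 2. With GC and length trends removed, LDHA passed with siCDO1A (log2 fold change 0.12, adjusted p = 0.024), but not with the block added. LDHB, the other subunit, and SLC16A3, which encodes the lactate exporter MCT4, had log2 fold changes of 0.12 and 0.35 with siCDO1A and of 0.025 and 0.16 with siCDO1C. SLC16A3 stood at only 5.26 ± 0.534 CPM in siCtrl cells (SD, n = 3).

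Among the enzymes of the upper pathway, 4 of 9 rose with siCDO1A and none passed the test with siCDO1C. GPI (ENSG00000105220, chromosome 19 from 34359480 to 34402413), the isomerase that turns glucose 6-phosphate into fructose 6-phosphate, was present at 468, 456 and 435 CPM in the siCtrl libraries and at 542, 538 and 528 CPM with siCDO1A. The groups were clearly apart, with a log2 fold change of 0.24 (SE 0.049, adjusted p = 0.0020) and log2 ratios of 0.21, 0.24 and 0.28 within the batches. The siCDO1C libraries lay in between at 469, 513 and 497 CPM (log2 fold change 0.12, adjusted p = 0.409).

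HK1 (ENSG00000156515, chromosome 10 from 69269984 to 69401884) encodes the hexokinase that phosphorylates glucose on entry in most tissues. Its siCtrl libraries were at 136, 139 and 148 CPM, its siCDO1A libraries at 158, 164 and 158 CPM and its siCDO1C libraries at 155, 148 and 147 CPM. Its log2 fold change was 0.18 with siCDO1A (SE 0.057, adjusted p = 0.036) and 0.082 with siCDO1C (SE 0.071, adjusted p = 0.589). It lost its siCDO1A call without siCtrl replicate 1 or 2 or siCDO1A replicate 1 or 2 (adjusted p = 0.084 to 0.176). HK2, the hexokinase that HIF-1 raises, was not past the threshold with either siRNA, with log2 fold changes of 0.030 and -0.12.

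TPI1 (ENSG00000111669, chromosome 12 from 6867119 to 6870948), which interconverts the triose phosphates, stood at 441, 457 and 460 CPM in siCtrl libraries and at 524, 509 and 483 CPM with siCDO1A (log2 fold change 0.16, SE 0.050, adjusted p = 0.036). With siCDO1C they were 471, 576 and 465 CPM, all above siCtrl but with replicate 2 far above the other 2 (log2 fold change 0.15, adjusted p = 0.37). ALDOC (ENSG00000109107, chromosome 17 from 28573115 to 28577264, minus strand), the aldolase known from brain, was at 25.1, 23.7 and 21.95 CPM in siCtrl libraries, at 31.0, 27.7 and 27.1 CPM with siCDO1A and at 29.1, 30.9 and 27.3 CPM with siCDO1C. The log2 fold change was 0.28 with siCDO1A (SE 0.092, adjusted p = 0.047) and 0.30 with siCDO1C (SE 0.098, adjusted p = 0.102), so that values of nearly the same size fell on different sides of the threshold. AC005726.1, on the same strand, overlaps ALDOC and held 228 counts per library on average against 370 for ALDOC, and how reads over both were assigned is not stated. Both calls with siCDO1A were lost when any library other than siCDO1A replicate 3 was left out (adjusted p = 0.064 to 0.181 for TPI1 and 0.061 to 0.208 for ALDOC). That of ALDOC was also lost in DESeq2, the method of the study, and without a filter on low counts. With GC and length trends removed, the log2 fold change of TPI1 was 0.094 and its call was lost (adjusted p = 0.075, and 0.160 with the block). The remaining members of the upper pathway, PFKL, PFKM, PFKP, HK2 and ALDOA, had log2 fold changes of 0.030 to 0.13 with siCDO1A and of -0.12 to 0.10 with siCDO1C.

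In the lower pathway, 1 of 6 enzymes passed the test with siCDO1A and none with siCDO1C. ENO1 (ENSG00000074800, chromosome 1 from 8861000 to 8879250, minus strand), which forms phosphoenolpyruvate, was at 1024, 1039 and 1081 CPM in siCtrl libraries and at 1216, 1163 and 1122 CPM with siCDO1A (log2 fold change 0.15, SE 0.048, adjusted p = 0.035). Its siCDO1C libraries were at 1077, 1231 and 1062 CPM and overlapped siCtrl. The call was lost without siCtrl replicate 1 or 2 or siCDO1A replicate 1 or 2 (adjusted p = 0.095 to 0.191). GAPDH, which is often used as a reference gene, was at 1376, 1336 and 1376 CPM in siCtrl libraries, at 1468, 1464 and 1408 CPM with siCDO1A and at 1248, 1409 and 1290 CPM with siCDO1C. It did not pass the test with either siRNA (log2 fold change 0.087, adjusted p = 0.223 and -0.058, adjusted p = 0.721), and the 95% interval of the change was -0.0083 to 0.18 with siCDO1A and -0.21 to 0.091 with siCDO1C. The other 4 enzymes, PGK1, PGAM1, ENO2 and PKM, ranged from 0.018 to 0.27 with siCDO1A and from -0.13 to 0.24 with siCDO1C on the log2 scale.

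**Figure D3:**
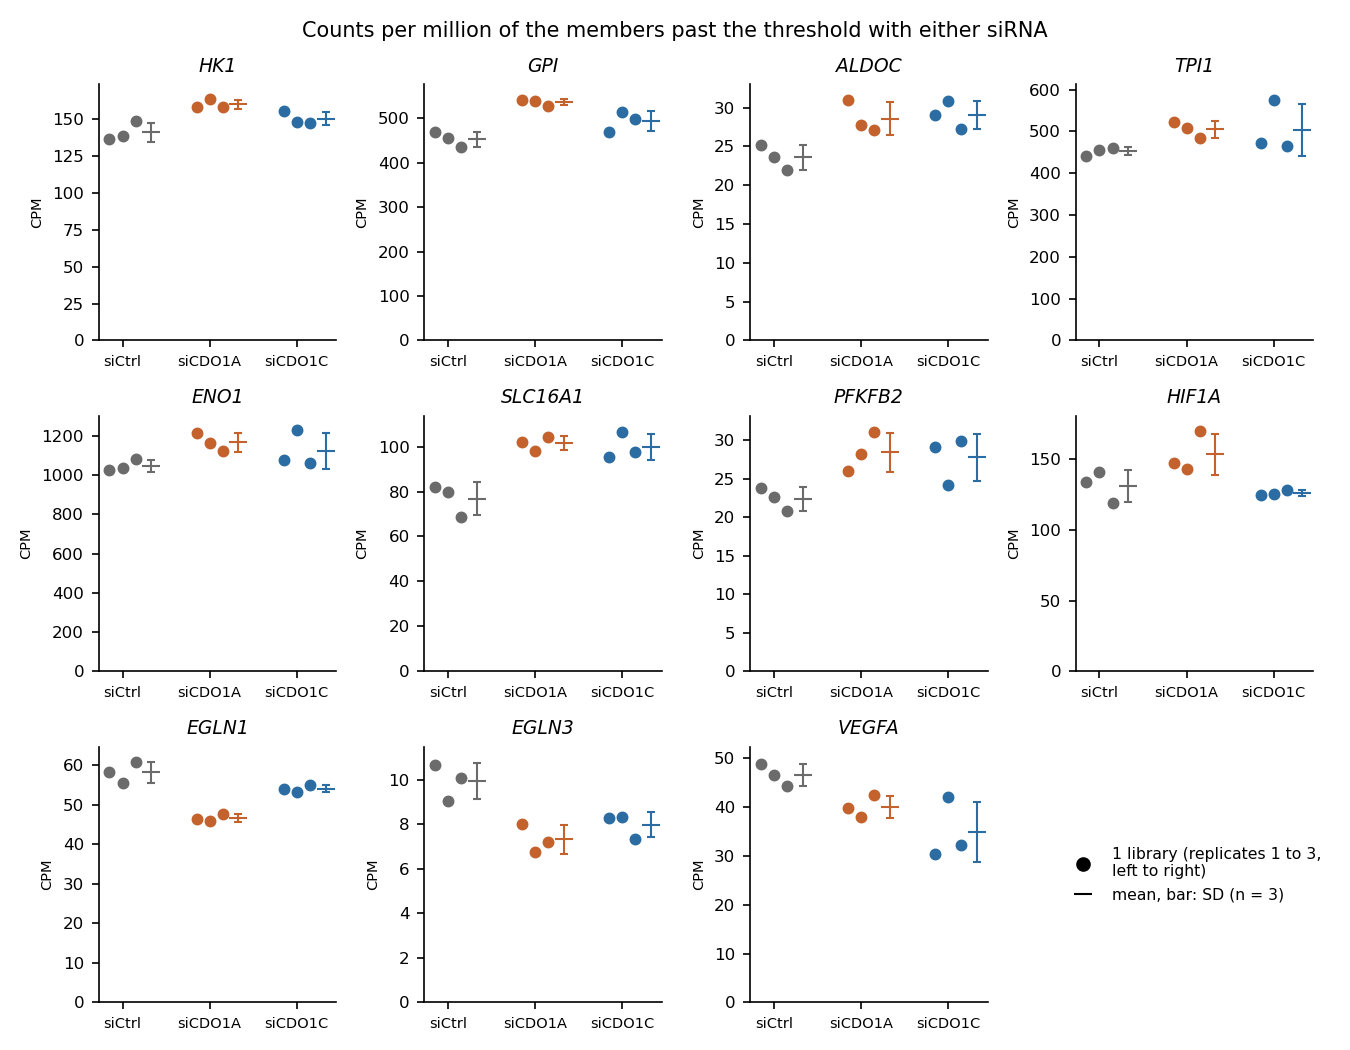
CPM of the 11 genes past the threshold with either siRNA in each of the 9 libraries, with the mean and SD of each group beside its 3 points and each axis starting at 0. All siRNA libraries lie above siCtrl for SLC16A1 and below it for EGLN1 and EGLN3, and siCDO1C replicate 2 (the middle blue point) is the highest siCDO1C library for TPI1, ENO1, SLC16A1 and VEGFA.

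Of the glucose transporters, neither passed the test. SLC2A1, which encodes GLUT1, the basal glucose transporter, was at 61.8, 63.5 and 69.8 CPM in siCtrl libraries, at 67.8, 63.3 and 64.8 CPM with siCDO1A and at 63.7, 56.4 and 62.2 CPM with siCDO1C, with all groups overlapping. The 95% interval of its log2 fold change was -0.14 to 0.15 with siCDO1A and -0.28 to 0.074 with siCDO1C. SLC2A3, which encodes GLUT3, had 10 to 28 counts per library, too few to show a change of the size seen for SLC16A1 (SE 0.35 with siCDO1A).

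Of the kinases, PFKFB2 passed the test. PFKFB2 (ENSG00000123836, chromosome 1 from 207034366 to 207081024) encodes a 6-phosphofructo-2-kinase, which makes the activator of phosphofructokinase, and its siCtrl libraries were at 23.8, 22.6 and 20.8 CPM. It was at 26.04, 28.1 and 31.1 CPM with siCDO1A and at 29.1, 24.2 and 29.9 CPM with siCDO1C, so that every library of both siRNAs was above siCtrl. The log2 fold change was 0.35 with siCDO1A (SE 0.095, adjusted p = 0.015) and 0.30 with siCDO1C (SE 0.108, adjusted p = 0.133), and without siCDO1C replicate 2 the latter became 0.40 (adjusted p = 0.0054). Without siCtrl replicate 2 or 3 the call with siCDO1A was lost (adjusted p = 0.056 and 0.071). YOD1 overlaps PFKFB2 on the other strand with a similar mean count (357 against 359), and the use of strand in the counting is not stated. PDK1, which encodes a kinase that blocks pyruvate dehydrogenase and is a HIF-1 target, was at 56.2, 53.3 and 51.4 CPM in siCtrl libraries and at 61.8, 59.0 and 63.9 CPM with siCDO1A, without overlap but short of the threshold (log2 fold change 0.20, adjusted p = 0.064). With siCDO1C it was at 47.3, 56.5 and 51.6 CPM. With GC and length trends removed, PDK1 passed the test with siCDO1A (log2 fold change 0.29, adjusted p = 0.00030, and 0.00031 with the block). PFKFB3 and PFKFB4, further isoforms of the same enzyme, had log2 fold changes of 0.16 and 0.077 with siCDO1A and of 0.067 and 0.0068 with siCDO1C.

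HIF1A, EGLN1 and EGLN3 were past the threshold with siCDO1A, the first higher and the others lower. EGLN2, the remaining HIF prolyl hydroxylase, was not (log2 fold change 0.39, adjusted p = 0.208), nor were the HIF subunits EPAS1 (-0.18, adjusted p = 0.149) and ARNT (-0.11, adjusted p = 0.359) or HIF1AN, the asparaginyl hydroxylase of HIF (-0.16, adjusted p = 0.210). HIF1A (ENSG00000100644, chromosome 14 from 61695513 to 61748259) was at 134, 141 and 119 CPM in siCtrl libraries, at 147, 143 and 169 CPM with siCDO1A and at 125, 125 and 128 CPM with siCDO1C. The log2 fold change was 0.23 with siCDO1A (SE 0.072, adjusted p = 0.036) and -0.063 with siCDO1C (SE 0.078, adjusted p = 0.729). Replicate 3 carried much of the former, with log2 ratios of 0.14, 0.021 and 0.51 in the batches 1, 2 and 3, and the call was lost without siCtrl replicate 1 or 3 or siCDO1A replicate 1 or 3 (adjusted p = 0.057 to 0.178).

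EGLN1 (ENSG00000135766, chromosome 1 from 231363751 to 231425044, minus strand) encodes PHD2, the main oxygen sensor of HIF. Its siCtrl libraries were at 58.3, 55.6 and 60.9 CPM, its siCDO1A libraries at 46.4, 45.8 and 47.8 CPM and its siCDO1C libraries at 54.0, 53.2 and 55.0 CPM. The 3 groups did not overlap, in the order siCtrl, siCDO1C, siCDO1A. EGLN1 was 19.9% lower with siCDO1A (log2 fold change -0.32, SE 0.072, adjusted p = 0.0044; -0.33, -0.28 and -0.35 within the batches), and the value with siCDO1C was -0.12 (SE 0.079, adjusted p = 0.481). EGLN3 (ENSG00000129521, chromosome 14 from 33924231 to 34462774, minus strand), which encodes the hypoxia-induced sensor PHD3, was at 10.7, 9.06 and 10.1 CPM in siCtrl libraries, at 8.03, 6.76 and 7.19 CPM with siCDO1A and at 8.28, 8.35 and 7.33 CPM with siCDO1C. Every library of both siRNAs was below siCtrl. The log2 fold change was -0.45 with siCDO1A (SE 0.137, adjusted p = 0.031) and -0.32 with siCDO1C (SE 0.138, adjusted p = 0.222). The call was lost without siCtrl replicate 1 or 3 or siCDO1A replicate 2 (adjusted p = 0.076 to 0.129). It was also lost in DESeq2, the method of the study. SPTSSA, on the same strand, lies over the annotated span of EGLN3 with 892 counts on average against 116 for EGLN3.

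Of the further HIF targets, VEGFA passed the test with siCDO1C and none did with siCDO1A. VEGFA (ENSG00000112715, chromosome 6 from 43770184 to 43786487) was at 48.9, 46.7 and 44.3 CPM in siCtrl libraries, at 39.9, 37.9 and 42.4 CPM with siCDO1A and at 30.4, 42.0 and 32.2 CPM with siCDO1C. All 6 libraries of the siRNAs were below siCtrl, and siCDO1C replicate 2 lay among those of siCDO1A. The log2 fold change was -0.43 with siCDO1C (SE 0.111, adjusted p = 0.040; -0.68, -0.15 and -0.46 within the batches) and -0.22 with siCDO1A (SE 0.078, adjusted p = 0.069). Without siCDO1C replicate 2 the value was -0.58 (adjusted p = 1.2e-05), while the call was lost without any other library of that comparison (adjusted p = 0.105 to 0.192) and with GC and length trends removed (up to 0.374). With siCDO1A, in contrast, VEGFA passed with these trends removed (-0.19, adjusted p = 0.048) and without siCDO1A replicate 3 (-0.26, adjusted p = 0.017). BNIP3, which encodes a mitophagy receptor, was at 113, 113 and 107 CPM in siCtrl libraries, at 116, 120 and 116 CPM with siCDO1A and at 108, 148 and 108 CPM with siCDO1C, with siCDO1C replicate 2 the single high library. ANKRD37 (10 to 41 counts per library), KDM3A (a histone demethylase) and P4HA1 (a collagen prolyl hydroxylase) had log2 fold changes of 0.16, -0.072 and -0.11 with siCDO1A and of -0.22, 0.074 and -0.29 with siCDO1C, and none of them passed the test. In all, 3 of the 5 tested genes of this group had a negative log2 fold change with each siRNA, but not the same 3. They were VEGFA, KDM3A and P4HA1 with siCDO1A, and VEGFA, ANKRD37 and P4HA1 with siCDO1C.

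When the siRNAs were set against each other, none of the 33 genes passed the edgeR test, against 0.444% of all genes. At an unadjusted p under 0.05 there were 4 of the 33, beside 1190 of all 15555 genes. With siCDO1C, EGLN1 was higher (log2 fold change 0.21) and HIF1A (-0.29), PDK1 (-0.25) and PGAM1 (-0.18) were lower. DESeq2 also gave 0 of these genes past the adjusted threshold. A difference between the siRNAs for the genes past the threshold with only 1 of them was therefore not shown. The 95% interval of the difference was -0.29 to 0.037 for GPI and -0.20 to 0.14 for SLC16A1. Without siCDO1C replicate 2, HIF1A (-0.28, adjusted p = 0.044), PDK1 (-0.32, adjusted p = 0.041), PGAM1 (-0.24, adjusted p = 0.0499) and VEGFA (-0.36, adjusted p = 0.042) were lower with siCDO1C. Of all genes, 2.87% then passed the test.

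The excess of siCDO1C replicate 2 over the mean of replicates 1 and 3 had a median of 0.144 on the log2 scale over the tested genes, beside 0.014 over all genes. It was largest for ANKRD37 (1.54), SLC2A3 (0.94) and SLC16A3 (0.71), all of low counts, followed by BNIP3 (0.45), VEGFA (0.42), LDHA (0.38), P4HA1 (0.31) and TPI1 (0.30). This library was the highest of siCDO1C for 6 of the 8 tested HIF-related members (75%) and 18 of the other 25 (72%). Of 37 further hypoxia-responsive genes it was highest for 16 (43.2%), beside 41.0% of all genes. PFKFB2, PFKM, HK1 and SLC2A1 were among the genes that were not highest in this library. Without it, 5 of the 33 genes passed the test with siCDO1C, against 13.3% of all genes: SLC16A1 and PFKFB2 were higher, and VEGFA, P4HA1 (-0.39, adjusted p = 0.018) and PGAM1 (-0.18, adjusted p = 0.021) were lower. The median of the 33 genes then was -0.0014. Values that shrank without it were those of TPI1 (log2 fold change 0.045), ENO1 (0.026), LDHA (0.0020) and BNIP3 (-0.039, below 0 in place of above it), and none of these passed the test with or without it. GPI (0.090), HK1 (0.095), ALDOC (0.26), HIF1A (-0.053), EGLN1 (-0.10) and EGLN3 (-0.35) also stayed short of the threshold. ANKRD37 had the widest shift, to -0.94 (adjusted p = 0.087). Of the genes outside the 35 described below, SLC2A13 (-0.86, adjusted p = 0.010), TMEM45A (-1.11, adjusted p = 6.2e-05), CITED2 (0.43, adjusted p = 1.9e-05) and LOX (0.64, adjusted p = 0.016) passed the test without it as well. INSIG2 (-0.31, adjusted p = 0.0066), PC (-0.20, adjusted p = 0.025) and STC2 (-0.24, adjusted p = 0.040) passed against siCtrl without it but not with all libraries.

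**Figure D4:**
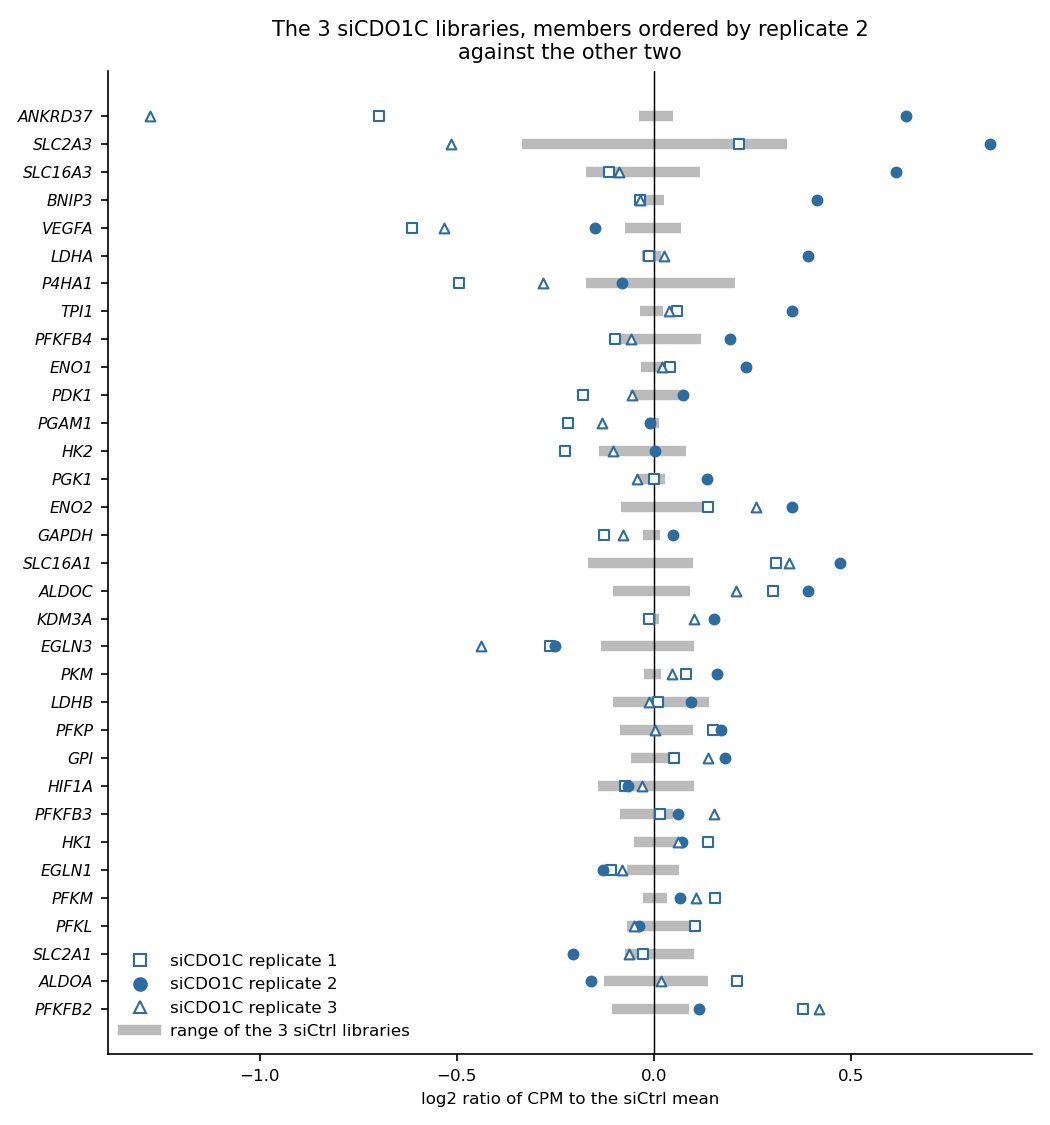
Log2 ratio of the CPM of each siCDO1C library to the siCtrl mean for the 33 tested genes, with the range of the 3 siCtrl libraries as a grey bar, ordered by the excess of replicate 2 over the other 2 libraries. Replicate 2 (filled circles) is the highest library for 24 genes, with ANKRD37, SLC2A3 and SLC16A3 at the top.

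In the labels, the batch of a library has the same number as its replicate. The deviations from the group means of same-numbered siCtrl and siCDO1A libraries had negative correlations across genes (r = -0.20, -0.090 and -0.38). With the batch number as a block, siCDO1A gave 3 genes (SLC16A1 and GPI higher, EGLN1 lower) in place of 10, against 8.73% of all genes. The adjusted p under the block was 0.0038 for SLC16A1, 0.023 for GPI and 0.028 for EGLN1, and for the other 7 it ran from 0.052 (PFKFB2) through 0.063 (EGLN3) to 0.157 (TPI1). For each of the 10, the siCDO1A libraries did not overlap those of siCtrl. The same direction within all 3 batches follows from this and is no separate check. With siCDO1C the block left both calls in place (SLC16A1, adjusted p = 0.022; VEGFA, adjusted p = 0.021), against 4.08% of all genes. With GC and length trends removed as well, siCDO1A gave 10 genes under the block, against 19.8% of all genes. Of the 10 calls above, those of ALDOC and TPI1 were then lost.

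**Figure D5:**
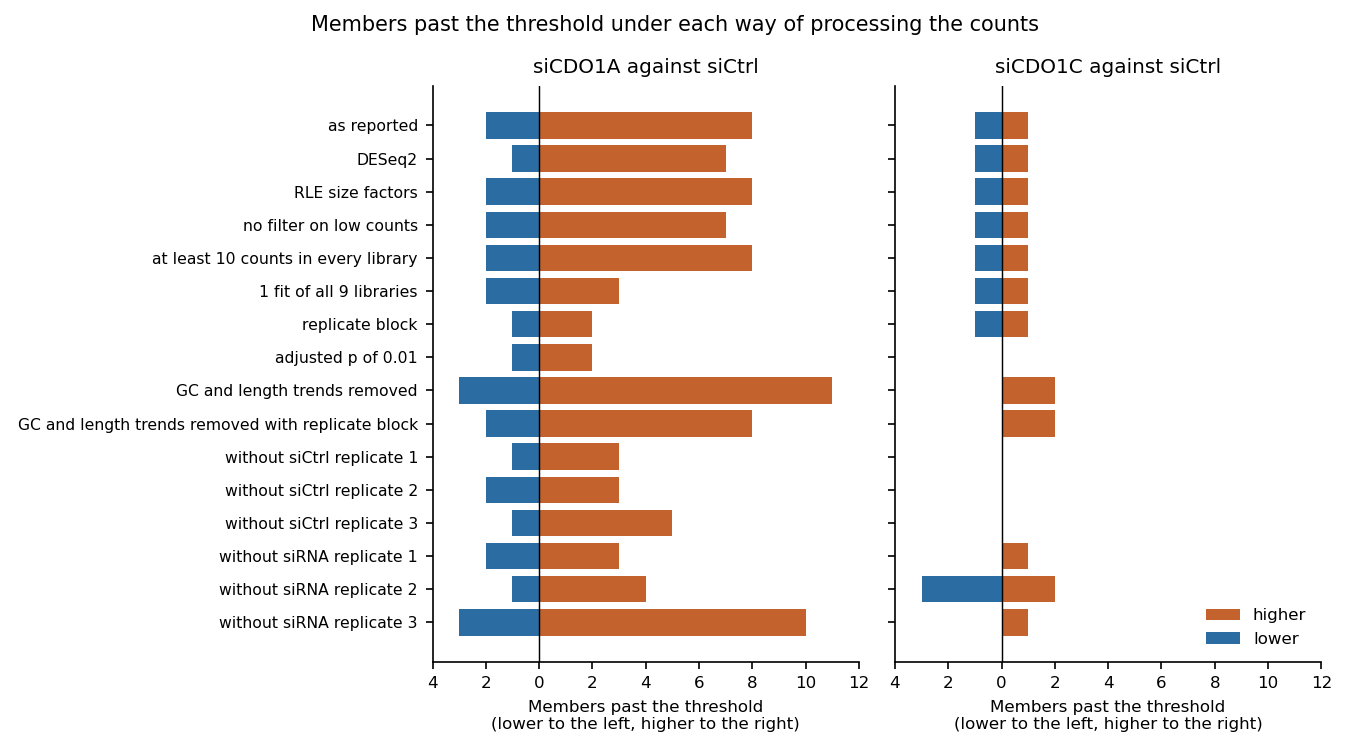
Number of the tested genes past the threshold, higher (orange, to the right) and lower (blue, to the left), with siCDO1A and siCDO1C under each way of processing the counts, with a setting per row and siRNA standing for the siRNA of the panel. With siCDO1A the number runs from 3 to 14, and with siCDO1C from 0 to 5.

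The share of each gene in the summed TPM of its family was compared to see whether isoforms replaced each other. These shares, and the sum over the enzymes below, rest on the deposited gene lengths. HK1 made up 85.0% ± 1.10 of the hexokinases in siCtrl cells, 86.3% ± 1.15 with siCDO1A and 86.6% ± 1.18 with siCDO1C (SD, n = 3). LDHA made up 81.2% ± 1.15, 80.7% ± 0.481 and 82.2% ± 1.69 of lactate dehydrogenase, and ENO1 97.6% ± 0.155, 97.4% ± 0.144 and 97.3% ± 0.140 of the enolases (SD, n = 3). Phosphofructokinase was divided between PFKL (42.3% ± 0.563), PFKM (38.6% ± 0.917) and PFKP (19.1% ± 0.375) in siCtrl cells. Over the 39 comparisons of 13 shares the smallest p was 0.1, the smallest possible here, and the smallest adjusted p was 0.731 (two-sided exact permutation tests). With 3 libraries in each group these tests could not pass 0.05 and do not show that the shares stayed the same. The 15 glycolytic enzymes summed to 4685 ± 84.7 TPM in siCtrl cells, 4930 ± 108 TPM with siCDO1A and 4754 ± 154 TPM with siCDO1C (SD, n = 3). The sum includes ALDOA at its listed level, which is uncertain for the reason given above.

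Further genes of the same pathways were read from the same fits. Of 30 other tested genes of glucose transport, gluconeogenesis and pyruvate use, 5 passed the test with siCDO1A (2 higher, 3 lower) and 1 with siCDO1C, or 16.7% and 3.33% beside the 14.8% and 4.77% of all genes. SLC2A13, a myo-inositol transporter of the glucose transporter family, fell with both, from 5.68, 6.76 and 4.90 CPM in siCtrl libraries to 2.62, 2.60 and 3.17 CPM with siCDO1A (log2 fold change -1.03, adjusted p = 0.0011) and 3.83, 2.73 and 2.39 CPM with siCDO1C (-0.94, adjusted p = 0.023). SLC2A12, a glucose transporter, was lower with siCDO1A (-0.47, adjusted p = 0.016). Of 7 genes of the pentose phosphate pathway, 1 passed the test with siCDO1A and none with siCDO1C: TKT, the transketolase, rose with siCDO1A (0.22, adjusted p = 0.0043). The siCDO1C call of SLC2A13 was lost without any siCtrl library or siCDO1C replicate 3 (adjusted p = 0.054 to 0.137), and that of SLC2A12 with siCDO1A without siCtrl replicate 1 or 2 or siCDO1A replicate 2 (0.066 to 0.095).

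Among 15 further genes of oxygen sensing, 2 rose with siCDO1A and 1 with siCDO1C (13.3% and 6.67%, beside 14.8% and 4.77% of all genes called in either direction). CITED2, an inhibitor of HIF that competes for its coactivators, rose with both, from 68.8, 74.8 and 72.0 CPM in siCtrl libraries to 90.2, 85.6 and 79.6 CPM with siCDO1A (log2 fold change 0.24, adjusted p = 0.018) and 98.4, 98.5 and 95.8 CPM with siCDO1C (0.43, adjusted p = 0.0030). P4HTM, a transmembrane prolyl hydroxylase, rose with siCDO1A (0.24, adjusted p = 0.021). Under the block, CITED2 and P4HTM with siCDO1A had an adjusted p of 0.079 each. These 2 calls were also lost without siCtrl replicate 1 or siCDO1A replicate 1 or 2, and that of P4HTM without siCtrl replicate 2 (adjusted p = 0.069 to 0.142). Of 37 further hypoxia-responsive genes, 7 passed the test with siCDO1A (2 higher, 5 lower) and 3 with siCDO1C (2 higher, 1 lower), or 18.9% and 8.11% beside the same shares of all genes. TMEM45A, a hypoxia-induced membrane protein, fell with both, from 8.71, 8.90 and 7.87 CPM in siCtrl libraries to 3.85, 4.24 and 4.42 CPM with siCDO1A (-1.02, adjusted p = 0.00013) and 3.90, 5.32 and 3.95 CPM with siCDO1C (-0.96, adjusted p = 0.0041). INSIG2, a regulator of sterol synthesis, was lower with siCDO1A (-0.60, adjusted p = 2.9e-05), and LOX, which crosslinks collagen, was higher with siCDO1C (0.78, adjusted p = 0.018), a call that was lost without any siCtrl library (adjusted p = 0.050 to 0.119). The median log2 fold change of these 37 genes was -0.014 with siCDO1A and 0.0077 with siCDO1C, and 17 and 20 of them, respectively, had a value above 0.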

How the data were processed

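RNA-seq of 9 VCaP libraries was analysed, 3 each for siCtrl, siCDO1A and siCDO1C. As the labels have it, poly(A) RNA went into directional libraries. The submitters' processing notes name CASAVA, HISAT2 2.0.5 and hg38, and the paper names featureCounts for counting. The settings for strand, multiple mapping and overlapping genes are not given in the sources used here. The values the authors deposited are raw counts per gene, not normalized. Of the columns of that table, 3 matched none of the samples and were left out.

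The 35 members were matched by symbol, and all 35 overlapped their RefSeq entry on GRCh38. The members and the other gene lists were chosen with earlier results of these data known. Genes were kept by filterByExpr (minimum count 10 over the 9 libraries), normalized with TMM (factors 0.990 to 1.01) and tested with the quasi-likelihood test of edgeR 4.0.16 in R 4.3.3, robust, on the 6 libraries of each comparison. Benjamini-Hochberg adjustment ran over 15555 genes, at a threshold of 0.05. CPM are scaled by TMM and TPM were computed from the deposited gene lengths. The authors' study compared each siRNA with siCtrl in DESeq2, and DESeq2 1.42.0 served as an alternative here. The fit was tested on simulated counts whose changes were larger than those of the called members, so the recovery at their sizes was not tested. Its pass criterion was narrowed to genes of higher count after a first run. Families and CDO1 were compared with two-sided exact permutation tests.

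Members past the threshold were given in full, and other members by range and count beside the most abundant member of each role. From the further lists, genes past the threshold with both siRNAs and at most 2 others per list with the largest change were named, and AK4, STC2, EGLN2, EPAS1, ARNT, HIF1AN, KRT14, CHGA, COL1A1, PNMA2, PPP2R2A and DPYSL2 were chosen after their values were seen. Promoter sequences are those of RefSeq on GRCh38.p14. Alternatives were RLE size factors, no filter, at least 10 counts in every library, 1 fit of all 9 libraries, the replicate block, an adjusted p of 0.01, removal of trends with GC content and length (with and without the block, GC known for 99.3% of genes tested), and leaving out each library. The labels' batch number equals the replicate number and was taken as pairing the libraries. The deviations from the group means of same-numbered libraries correlated with r from -0.376 to 0.378 over genes with at least 5 CPM, a correlation across genes that are not independent replicates. Of the 9 pairs 2 were over 0.1, both of siCDO1A with siCDO1C. The labels call the replicates biological, and p-values measure the spread between these libraries of a single cell line.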

Additional observations from a re-analysis of the deposited data

Results flagged for a closer look

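In the direct comparison of the siRNAs, 3 genes of the further pathway lists differed past the threshold (edgeR, adjusted over all genes), none of them among the 35 genes. PC, which encodes pyruvate carboxylase, was at 116, 116 and 109 CPM in siCtrl libraries, at 129, 135 and 122 CPM with siCDO1A and at 100.5, 90.7 and 98.0 CPM with siCDO1C (log2 difference of siCDO1C from siCDO1A -0.417, adjusted p = 0.029). The 3 groups did not overlap, and neither difference from siCtrl passed the test with all libraries kept. STC2, which encodes stanniocalcin-2, followed the same order with 52.7, 49.4 and 51.9 CPM in siCtrl libraries, 55.7, 59.6 and 56.0 CPM with siCDO1A and 42.1, 41.2 and 45.4 CPM with siCDO1C (-0.417, adjusted p = 0.0496). AK4, which encodes a mitochondrial adenylate kinase, was higher with siCDO1C than with siCDO1A (0.418, adjusted p = 0.028), at 89.2, 92.6 and 92.0 CPM against 69.4, 64.8 and 70.1 CPM, with 102, 98.6 and 96.1 CPM in siCtrl libraries. Against siCtrl, AK4 was past the threshold with siCDO1A, lower, and kept that call under all 15 alternatives (log2 fold change -0.565 to -0.491, adjusted p up to 0.00025). Each of the 3 differences between the siRNAs was lost when any siCDO1A or siCDO1C library other than siCDO1C replicate 2 was left out (adjusted p = 0.078 to 0.41), and that of STC2 also with RLE size factors (0.055) and with at least 10 counts in every library (0.052).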

How the results depend on the processing

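With siCDO1A, 3 genes passed with the replicate block, 5 in 1 fit of all 9 libraries and 3 at an adjusted p of 0.01, and from 4 to 13 when 1 library was left out (the most without siCDO1A replicate 3). With GC and length trends removed, 14 passed (11 higher, 3 lower), against 21.2% of all genes. Of these, PDK1, LDHA, VEGFA, PFKM (0.14, adjusted p = 0.013) and ENO2 (0.24, adjusted p = 0.041) did not pass without the removal. With the block added 10 passed (8 higher, 2 lower), against 19.8% of all genes, PDK1 and PFKM (adjusted p = 0.036) among them. In DESeq2, 8 of the 32 members with an adjusted p passed with siCDO1A (7 higher, 1 lower), against 12.7% of all genes. ALDOC and EGLN3 lost their call there. SLC16A1, GPI and EGLN1 kept their call with siCDO1A under all 15 alternatives. With siCDO1C, 0 passed at an adjusted p of 0.01 and from 0 to 5 when 1 library was left out, 0 without any of the siCtrl libraries and 5 without siCDO1C replicate 2. VEGFA with siCDO1C lost its call under 8 of 15 alternatives, among them the removal of GC and length trends, and SLC16A1 under 4. Between the siRNAs, 1 gene (HIF1A) passed with the trends removed, with the block (1) or without it (1), and from 0 to 4 with 1 library left out. The number past the threshold with both siRNAs was 0 at an adjusted p of 0.01, 2 with the trends removed with or without the block, and from 0 to 2 with 1 library left out. On its own, the block removed the 7 siCDO1A calls given above and changed no other call of the 33 genes. No direction of a called gene reversed, and the cause of these changes was not tested. Over all genes the number of calls was 2309 with siCDO1A (1358 with the block, 1369 in 1 fit of all 9 libraries, 1107 at an adjusted p of 0.01, 3295 with the trends removed, 3083 with the block added, 1292 to 3454 with 1 library left out) and 742 with siCDO1C (1510 with the trends removed, 1346 with the block added, 282 at an adjusted p of 0.01, 263 to 2068 with 1 library left out). Between the siRNAs it was 69 (128 in 1 fit of all 9 libraries, 121 with the block, 147 without a filter, 24 at an adjusted p of 0.01, 193 with the trends removed, 318 with the block added, 18 to 447 with 1 library left out). Low counts limit SLC2A3, ALDOA, ANKRD37 and SLC16A3.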

Other observations

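BNIP3L had 2, 0 and 1 counts in the siCtrl libraries, 1, 0 and 0 with siCDO1A and 0 in the 3 siCDO1C libraries. PPP2R2A, a neighbour of BNIP3L on chromosome 8, had 0 counts in all 9 libraries, PNMA2 had 16 to 50 and DPYSL2 394 to 576. CA9, a gene often used as a marker of hypoxia, had no count in 6 of the 9 libraries and at most 2.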
